A study of Homo sapiens with 12 samples.

Results

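The genes described here are 38 ribosome biogenesis factors, followed in BXPC3 and PANC1, 2 established human pancreatic cancer cell lines. They were chosen by symbol, and all 38 had a value in the table of 16299 genes. Each line was embedded in a collagen hydrogel, in 5% GelMA or in 7.5% GelMA, where GelMA is gelatin methacryloyl, a gelatin modified so that it can be cross-linked into a gel. The 6 groups were therefore BXPC3 in collagen, in 5% GelMA and in 7.5% GelMA, and PANC1 in the same 3 gels, with 2 poly-A RNA sequencing libraries each. Cells of both lines were cultured in high-glucose DMEM with bovine serum and penicillin/streptomycin, and neither line carried a labelled genetic change or drug treatment. Gel stiffness, days in the gel and whether replicates were separate cultures are not given in the sources, so a p-value here covers only the spread from library to library, part of which may be technical.

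Ribosomes are built in the nucleolus, where RNA polymerase I transcribes the precursor of the ribosomal RNAs. Small nucleolar ribonucleoproteins (snoRNPs) guide the methylation and pseudouridylation of that RNA, and large assemblies of proteins and helicases then fold, trim and split it into the precursors of the small 40S and large 60S subunits. In cancer cells many of these genes are known targets of the transcription factor MYC, which binds the E-box sequence CACGTG. The 38 genes comprised 2 subunits of RNA polymerase I, 7 snoRNP proteins and 6 nucleolar proteins and regulators. The rest were 11 factors of the small subunit processome and 40S maturation, and 12 factors of 60S assembly.

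The values are log2 RPKM, a read density corrected for gene length, so levels can be set side by side between genes. Of the 38 factors, 35 lay above the median gene of the table (3.86 log2 RPKM, mean of 12 libraries), and the median factor stood at percentile 79.9 of all genes. NCL (nucleolin, a nucleolar RNA-binding protein) had the highest mean level, 9.50 log2 RPKM, followed by NPM1 (nucleophosmin, a nucleolar chaperone) at 9.25 and NOP10 (a small H/ACA snoRNP protein) at 8.45. RCL1 (a factor of early 40S processing) at 2.66, PPAN (a 60S assembly factor) at 0.39 and NOP2 (a methyltransferase of the large ribosomal RNA) at -0.33 were the lowest. The SD between the 2 libraries of a group had a median of 0.05 log2 over genes and groups, and its highest value was 0.33 without NOP2 and PPAN and 0.54 with them. NOP2 shared 54.4% of its exonic bases with the gene AC006064.6 on the same strand, and PPAN shared 56.0% with PPAN-P2RY11. The values of both are therefore uncertain, and the part of the overlaps in their low levels was not tested. NPM1 also has near-identical processed pseudogenes elsewhere in the genome, which makes its level less certain.

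**Figure D1:**
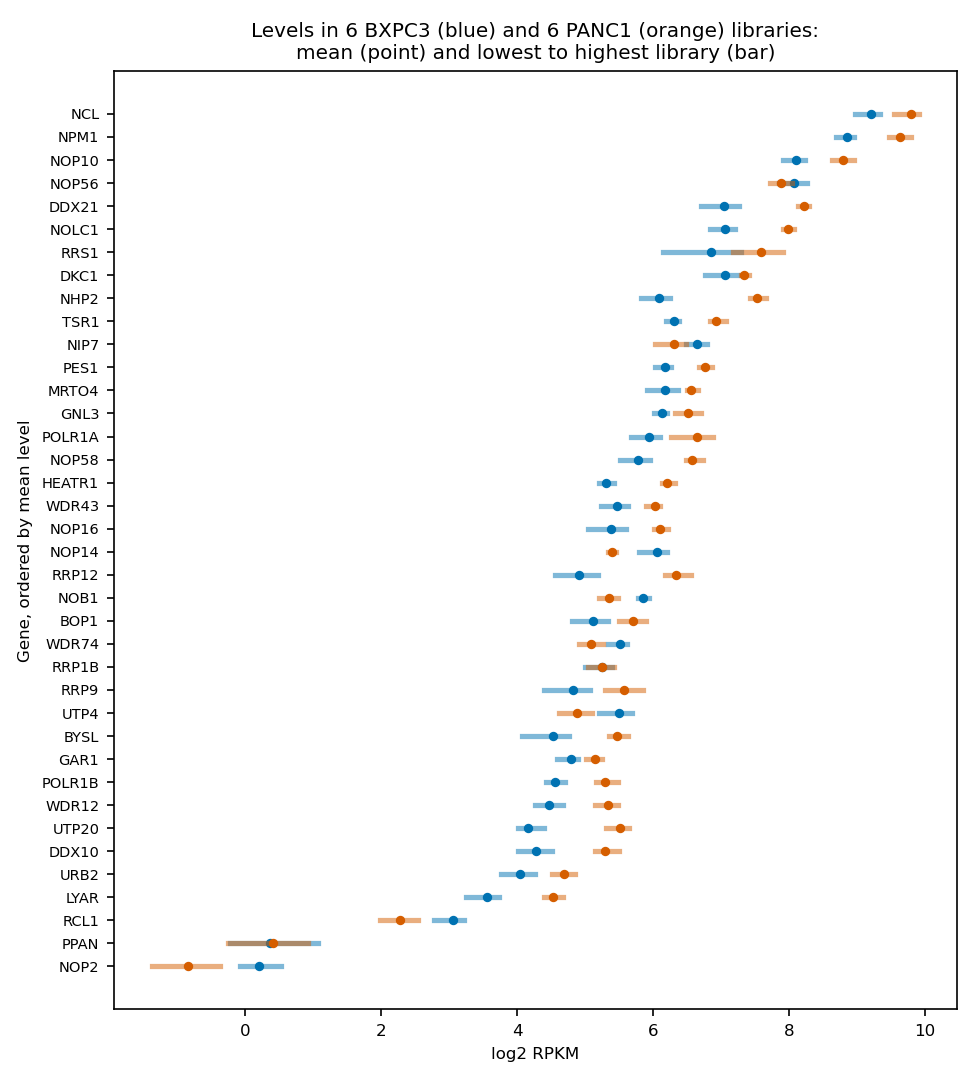
Mean level of each of the 38 factors (point, log2 RPKM on the x axis) and the span from the lowest to the highest of 6 libraries (bar), in BXPC3 (blue) and PANC1 (orange). NCL and NPM1 lie at the top at 9.50 and 9.25, and NOP2 and PPAN lie far under the rest.

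Replicates correlated at 0.9922 to 0.9950 across genes, and every library had the same median gene, 3.99 log2 RPKM. The depth is unknown, because the deposited values keep no library totals. The epithelial markers KRT8, KRT18, KRT19 and EPCAM were present in all libraries, and their summed levels were higher in GelMA. The sum was 5720 to 5850 RPKM in collagen, 6710 to 6740 in 5% and 6270 to 6330 in 7.5% GelMA in BXPC3. In PANC1 it was 4630 to 5440, 6660 to 6790 and 5720 to 6460 RPKM. KRT8 and KRT18 were higher in every GelMA library of both lines, and EPCAM in those of PANC1. KRT19 in PANC1 stood at 10.37 and 10.09 log2 RPKM in collagen, 10.57 and 10.57 in 5% and 9.72 and 10.03 in 7.5% GelMA. In BXPC3 the GelMA values of KRT19 and EPCAM met or overlapped those in collagen. Of 6 fibroblast markers, COL1A1 and COL3A1 had values, summing to 15.3 to 16.1 RPKM in BXPC3. In PANC1 that sum was 141 to 147 RPKM in collagen, 222 to 227 in 5% GelMA and 363 to 426 in 7.5% GelMA, while its 2 genes went opposite ways. COL1A1 stood at 6.52 and 6.49 log2 RPKM in PANC1 in collagen, 7.72 and 7.75 in 5% and 8.48 and 8.71 in 7.5% GelMA, and COL3A1 at 5.62 and 5.84, 3.49 and 3.58, and 2.51 and 2.86. The part of the epithelial and fibroblast marker levels in the results was not tested. Endothelial markers (2 of 3 with values) summed to 4.1 RPKM or less and leukocyte markers (2 of 4) to 3.49 RPKM or less in every library. In bulk RNA, fewer cells of a type and less RNA per cell cannot be told apart.

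Upstream sequences were read to show which of these genes carry the E-box near their start. RefSeq upstream windows of 250 bases (build GRCh38.p14) were at hand for 31 of the 38 genes, and BOP1, NOLC1, NOP58, RRP12, RRP1B, RRS1 and URB2 had none. CACGTG, searched on both strands (it reads the same on each), was found in 5 of the 31 genes (16.1%). It was in 11.1% of 11045 protein-coding genes of the table, 14.6% of 123 other ribosome biogenesis genes and 4.76% of 63 cytosolic ribosomal protein genes. Over all 27305 genes with a window the share was 7.73%. The GC box GGGCGG, searched on both strands, was in 21 of 31 (67.7%). It was in 74.2% of the protein-coding genes of the table and 46.2% of all genes with a window. The 6 matches to the E-box follow, 5′ to 3′ on the gene's strand, with CACGTG in capitals. They lie at chr4:4290068-4290097 (minus strand) for LYAR, chr10:68956604-68956633 (plus) for DDX21, chr12:101280083-101280104 (plus) for UTP20, chr15:34343289-34343318 and chr15:34343137-34343159 (minus) for NOP10, and chr16:69132621-69132648 (plus) for UTP4. LYAR and UTP20 are shown by the rule for named genes, and the other 3 genes were added after their values were seen so that the set is whole.
LYAR: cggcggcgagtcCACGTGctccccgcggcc
DDX21: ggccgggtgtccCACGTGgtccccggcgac
UTP20: cttttttccgtcCACGTGaccc
NOP10 distal: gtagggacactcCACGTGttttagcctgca
NOP10 proximal: gaaattgacgaaCACGTGacgcg
UTP4: agagcgcgcgcgCACGTGgggccggggc
The motif began 64 bases before the RefSeq start in LYAR, 31 in DDX21, 10 in UTP20, 170 and 11 in NOP10 and 16 in UTP4. By GENCODE 29, the matches of LYAR, DDX21 and UTP4 and the proximal match of NOP10 lay inside the gene, past its outermost start. LYAR and DDX21 each had another RefSeq window, which did not hold the motif. A match is a description of the letters and not of binding, which was not measured.

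Most of the 38 factors were higher in GelMA than in collagen in BXPC3. With the mean of the 2 GelMA concentrations set against collagen, 28 of 38 rose and 0 fell by limma with Benjamini-Hochberg adjustment (33 had an unadjusted p under 0.05), while 19.4% of 15794 genes rose and 16.7% fell. The median factor was 1.23-fold higher (0.29 log2), against a median of 0.01 log2 over all genes. Of the 38 differences 36 were positive, against 51.4% over all genes. In 32 of the 38 all 4 GelMA libraries lay above both collagen libraries. The share of all genes that did so was not counted. The rises were seen in every role: 2 of 2 polymerase subunits, 6 of 7 snoRNP proteins, 6 of 6 nucleolar proteins, 5 of 11 40S factors and 9 of 12 60S factors.

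**Figure D2:**
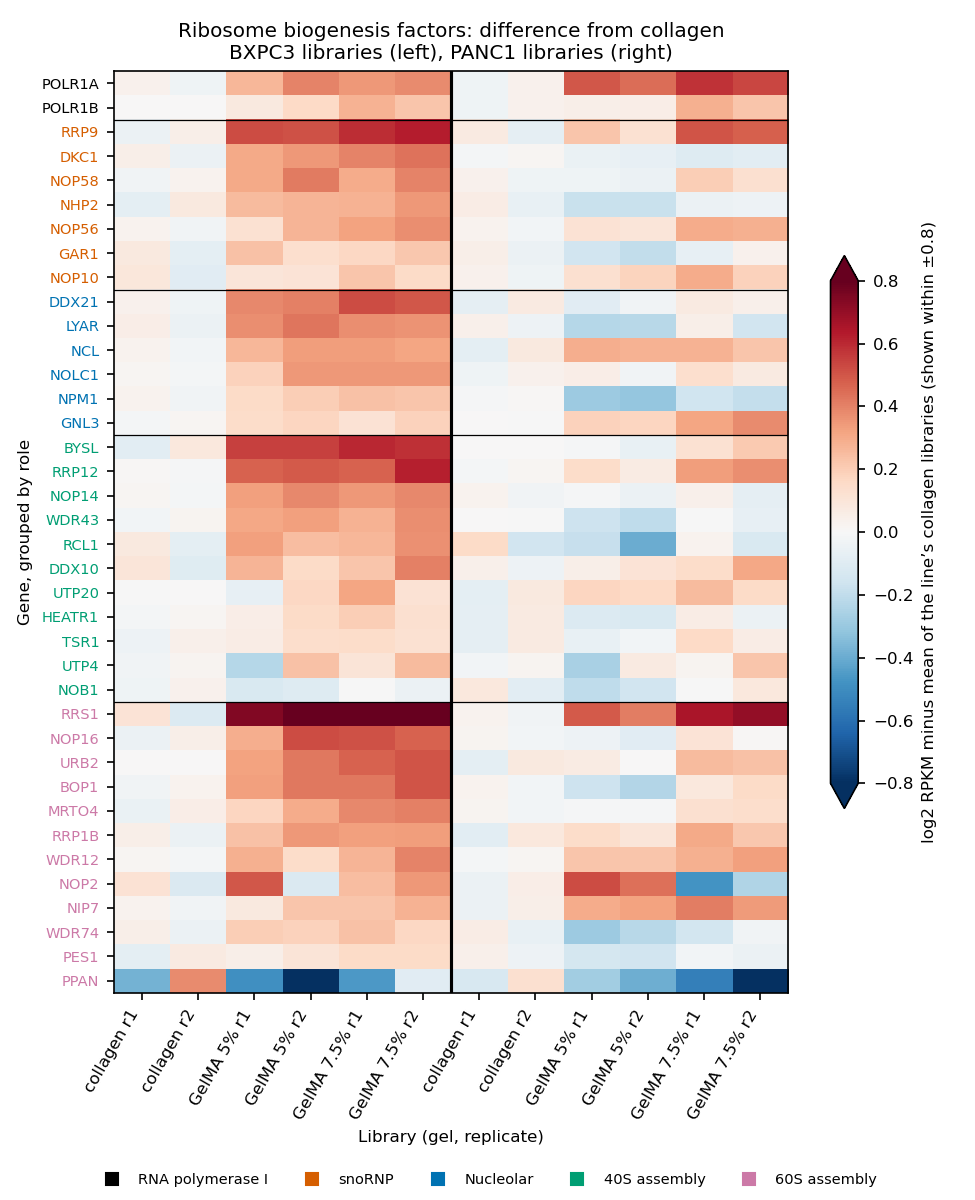
Difference of each library from the mean of its line's collagen libraries (color, log2, shown within ±0.8) for the 38 factors (y axis, grouped by role) in 12 libraries (x axis, BXPC3 left, PANC1 right). The 4 GelMA libraries of BXPC3 are warm for nearly all genes, where 28 of 38 rose, and those of PANC1 are mixed, with 13 higher and 3 lower.

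RRS1, a factor needed for 60S assembly that is encoded by a single-exon gene on chromosome 8, rose most. It stood at 6.37 and 6.15 log2 RPKM in BXPC3 in collagen, 7.0 and 7.13 in 5% GelMA and 7.18 and 7.30 in 7.5% GelMA. The GelMA libraries were all higher than the collagen libraries, and the rise was 0.89 ± 0.06 log2 (SE), or 1.86-fold (adjusted p = 1.52e-05). BYSL, bystin, which acts in the late steps of 40S assembly, followed with 4.07 and 4.24 in collagen, 4.70 and 4.70 in 5% and 4.76 and 4.74 in 7.5% GelMA. Its groups did not overlap, and it rose 1.48-fold (0.57 ± 0.05 log2, adjusted p = 4.91e-05). RRP9, the protein specific to the U3 snoRNP (chr3:51933430-51941941, minus strand), had 4.40 and 4.50 in collagen, 4.97 and 4.96 in 5% and 5.04 and 5.08 in 7.5% GelMA. It was again higher in all 4 GelMA libraries, by 1.47-fold (0.56 ± 0.05 log2, adjusted p = 5.3e-05).

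At the other end, the smallest called rises were those of GNL3, POLR1B and GAR1. GNL3, nucleostemin, a nucleolar GTP-binding protein, stood at 6.01 and 6.04 in collagen, 6.17 and 6.20 in 5% and 6.14 and 6.21 in 7.5% GelMA, a rise of 0.16 ± 0.03 log2 (adjusted p = 0.00394). POLR1B, the second largest subunit of RNA polymerase I, had 4.43 and 4.43 in collagen, 4.51 and 4.59 in 5% and 4.71 and 4.65 in 7.5% GelMA, a rise of 0.18 ± 0.04 log2 (adjusted p = 0.00811). GAR1, an H/ACA snoRNP protein, had 4.74 and 4.59 in collagen, 4.90 and 4.80 in 5% and 4.83 and 4.88 in 7.5% GelMA, with adjusted p = 0.0292. These GelMA libraries lay above both collagen libraries by small steps, and GAR1 had an adjusted p of 0.262 without BXPC3 collagen replicate 2, 0.0742 without 5% GelMA replicate 1 and 0.0754 without 7.5% GelMA replicate 2. The 10 factors not called were HEATR1, NOB1, NOP2, NOP10, PES1, PPAN, RCL1, TSR1, UTP4 and UTP20, with differences from -0.48 (PPAN) to 0.30 log2 (RCL1). Without BXPC3 collagen replicate 1, PPAN was called lower (-0.86 log2, adjusted p = 0.0425).

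In PANC1 fewer of the 38 factors were called, and most of those called were higher in GelMA. Against collagen, 13 of 38 were higher in GelMA (34.2%) and 3 were lower (7.89%), while 27.7% of all genes tested were higher and 27.4% lower. The median factor differed by 0.06 log2, near the median of all genes of -0.01. Of the 38 differences 22 were positive, against 49.3% over all genes. The higher genes were 2 of 2 polymerase subunits, 3 of 7 snoRNP proteins (NOP56, RRP9 and NOP10), 2 of 6 nucleolar proteins (NCL and GNL3), 1 of 11 40S factors (RRP12) and 5 of 12 60S factors (RRS1, NIP7, WDR12, RRP1B and URB2). The number lower was 7 when only PANC1 libraries were fitted and also without BXPC3 collagen replicate 1 or without BXPC3 collagen replicate 2, and 1 without PANC1 collagen replicate 1.

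RRS1 again rose most, from 7.24 and 7.18 log2 RPKM in PANC1 in collagen to 7.70 and 7.62 in 5% and 7.86 and 7.91 in 7.5% GelMA. The groups did not overlap (1.48-fold, adjusted p = 3.94e-05). POLR1A, the largest subunit of RNA polymerase I (chr2:86020216-86106155, minus strand), had 6.27 and 6.34 in collagen, 6.80 and 6.75 in 5% and 6.88 and 6.84 in 7.5% GelMA. It rose 1.43-fold (0.51 ± 0.04 log2, adjusted p = 6.25e-06), and in BXPC3 it had risen 1.27-fold, from 5.75 and 5.68 to 5.98, 6.11, 6.06 and 6.09. NIP7, a 60S assembly factor, had 6.03 and 6.13 in collagen, 6.38 and 6.40 in 5% and 6.49 and 6.42 in 7.5% GelMA, a 1.27-fold rise without overlap (adjusted p = 0.000202). Its exons share 20.2% of their bases with COG8 on the opposite strand, and the strand setting of the counting is not given in the labels.

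NPM1 fell in PANC1, where its level was highest. It stood at 9.78 and 9.80 in collagen, 9.50 and 9.48 in 5% and 9.63 and 9.60 in 7.5% GelMA, so that every GelMA library was lower (0.851-fold, -0.23 ± 0.03 log2, adjusted p = 9.78e-05). In BXPC3 the same gene had risen 1.15-fold, from 8.75 and 8.70 in collagen to 8.88 and 8.92 in 5% and 8.96 and 8.95 in 7.5% GelMA. WDR74, a 60S assembly factor, had 5.26 and 5.14 in PANC1 in collagen, 4.91 and 4.98 in 5% and 5.05 and 5.17 in 7.5% GelMA. Its groups overlapped, and the difference of -0.18 ± 0.05 log2 (adjusted p = 0.0158) was -0.12 without PANC1 collagen replicate 1 (adjusted p = 0.16). WDR43, a protein of the small subunit processome, had 6.11 and 6.10 in collagen, 5.94 and 5.90 in 5% and 6.10 and 6.04 in 7.5% GelMA. The collagen and GelMA values of WDR43 almost met, and its -0.11 ± 0.04 log2 (adjusted p = 0.0232) had an adjusted p of 0.0925 without PANC1 collagen replicate 1, 0.0796 without PANC1 collagen replicate 2, 0.0667 without 5% GelMA replicate 2 and 0.0682 without 7.5% GelMA replicate 2.

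**Figure D3:**
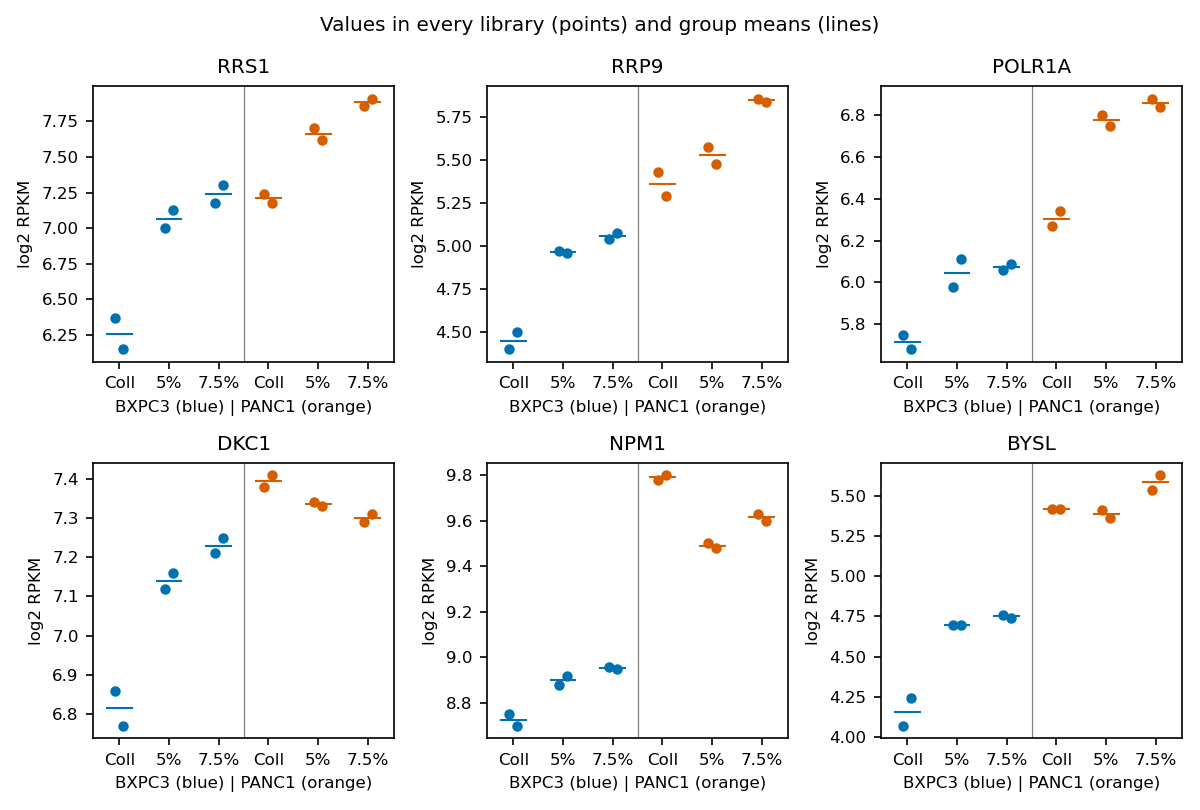
Values in every library (points, log2 RPKM on the y axis) and group means (lines) for RRS1, RRP9, POLR1A, DKC1, NPM1 and BYSL in collagen, 5% and 7.5% GelMA (x axis), BXPC3 in blue and PANC1 in orange; each y axis has its own range. RRS1, RRP9 and POLR1A lie higher in GelMA in both lines, whereas NPM1 lies higher in GelMA in BXPC3 and lower in PANC1.

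The comparisons of the lines set different libraries against each other, but 1 model of 12 libraries gave both their estimate of spread. Their calls are therefore set side by side without being independent. Over all genes tested, 19.4% rose in BXPC3 and 27.7% in PANC1. The share of all genes in each joint class below was not counted. Of the 38, 12 rose in both lines: GNL3, NCL, NIP7, NOP56, POLR1A, POLR1B, RRP1B, RRP9, RRP12, RRS1, URB2 and WDR12. A further 13 were called in BXPC3 alone: BOP1, BYSL, DDX10, DDX21, DKC1, GAR1, LYAR, MRTO4, NHP2, NOLC1, NOP14, NOP16 and NOP58. NOP10 was called in PANC1 alone, but in BXPC3 it was just over the threshold by limma (0.14 log2, adjusted p = 0.0534). Its interaction between the lines was not called (0.05 log2, adjusted p = 0.637). NPM1, WDR43 and WDR74 rose in BXPC3 and were lower in PANC1, and 9 were called in neither. Several of these calls rested on 1 collagen library. Without PANC1 collagen replicate 1, the PANC1 values of URB2 (0.07 log2, adjusted p = 0.387), RRP1B (0.10, adjusted p = 0.218) and POLR1B (0.11, adjusted p = 0.118) were not called, and neither was NOP10 without PANC1 collagen replicate 2 (adjusted p = 0.0893). URB2 in PANC1 had an adjusted p of 0.0483 and overlapping libraries, and was called neither with a replicate block (0.0553) nor without any 1 of 9 libraries: either BXPC3 collagen library, either BXPC3 7.5% GelMA library, PANC1 collagen replicate 1 or any PANC1 GelMA library. RRP1B was also lost in PANC1 without 5% GelMA replicate 1 (adjusted p = 0.0528) or 7.5% GelMA replicate 1 (0.0541). Without BXPC3 collagen replicate 2, the BXPC3 values of WDR74 (0.15 log2, adjusted p = 0.14), NIP7 (0.17, adjusted p = 0.0899) and DDX10 (0.17, adjusted p = 0.201) were not called. DDX10 was also lost without BXPC3 5% GelMA replicate 1 (adjusted p = 0.0547) or 7.5% GelMA replicate 2 (0.0593).

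Whether the effect of GelMA differed between the lines was tested directly with the interaction term, the effect in PANC1 minus that in BXPC3. By that test 21 of 38 factors had a lower effect in PANC1 and 0 a higher one, where 24 had an unadjusted p under 0.05 in limma, and 20.6% of all genes tested were lower and 18.5% higher. The median was -0.24 log2 against -0.02 over all genes. The 21 comprised 5 of 7 snoRNP proteins, 4 of 6 nucleolar proteins, 5 of 11 40S factors, 7 of 12 60S factors and 0 of 2 polymerase subunits. POLR1A had the highest difference, 0.17 ± 0.06 log2 (adjusted p = 0.0519), and without BXPC3 5% GelMA replicate 2 both POLR1A (adjusted p = 0.014) and NIP7 (adjusted p = 0.0434) were called higher in PANC1.

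**Figure D4:**
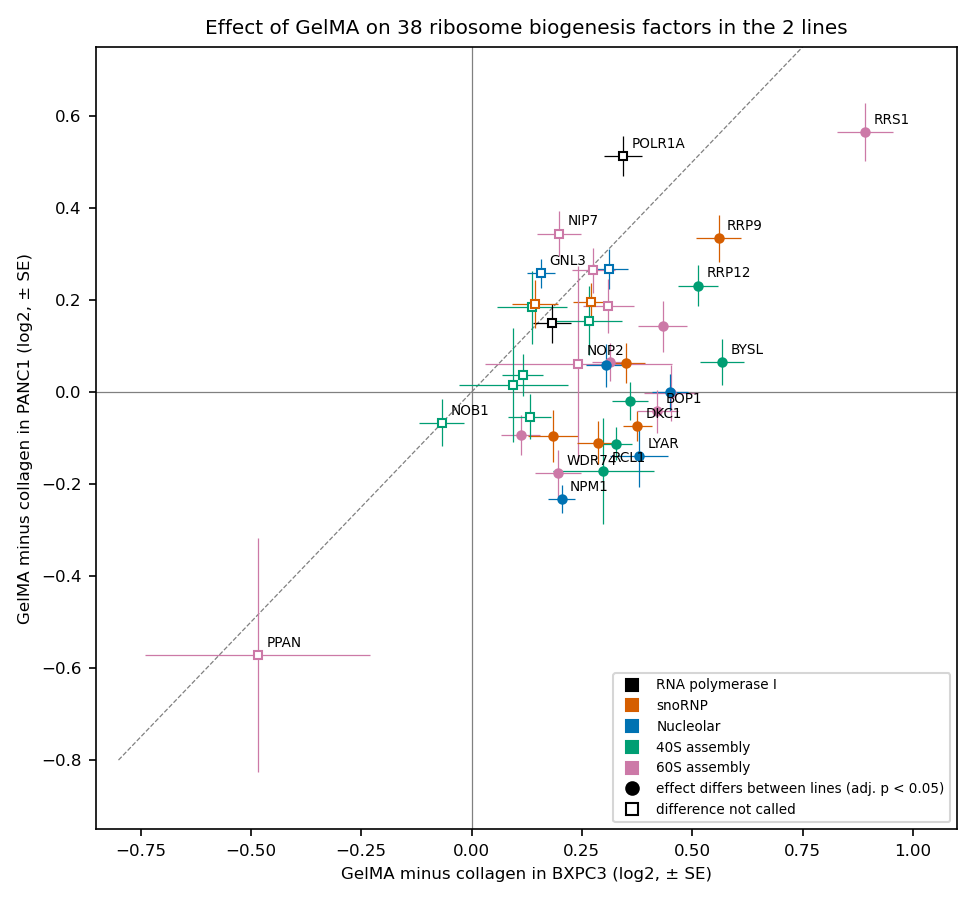
Effect of GelMA in BXPC3 (x axis) and in PANC1 (y axis) for each of the 38 factors, as log2 difference from collagen with SE bars; circles mark the 21 genes whose effect differed between the lines and open squares the rest. Nearly all points lie right of zero, and the circles lie under the diagonal of equal effects.

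LYAR, a nucleolar zinc-finger protein (chr4:4267701-4290169, minus strand) and one of the genes with the E-box shown above, had the lowest interaction. In BXPC3 it stood at 3.35 and 3.25 in collagen, 3.67 and 3.73 in 5% and 3.67 and 3.66 in 7.5% GelMA, and in PANC1 at 4.66 and 4.58, then 4.39 and 4.40, then 4.67 and 4.47. All GelMA libraries of BXPC3 were higher, while those of PANC1 overlapped the collagen libraries, and the effects differed by -0.52 ± 0.09 log2 (adjusted p = 0.00167). The gels overlapped for BYSL in PANC1, with 5.42 and 5.42 in collagen, 5.41 and 5.36 in 5% and 5.54 and 5.63 in 7.5% GelMA, a difference between the lines of -0.50 ± 0.07 log2 (adjusted p = 0.000414). RCL1 had 2.93 and 2.78, then 3.18 and 3.10, then 3.12 and 3.22 in BXPC3, and 2.54 and 2.23, then 2.20 and 1.99, then 2.41 and 2.26 in PANC1. Its libraries spread more than those of LYAR and BYSL, and the interaction of -0.47 ± 0.16 log2 (adjusted p = 0.0431) was not called without BXPC3 collagen replicate 2, any of the 4 BXPC3 GelMA libraries, PANC1 collagen replicate 1, PANC1 5% GelMA replicate 2 or PANC1 7.5% GelMA replicate 2 (adjusted p from 0.0557 to 0.175).

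The smallest interactions among the 21 were those of PES1, RRP9 and NOLC1. PES1, a member of the PeBoW complex of 60S assembly, had 6.03 and 6.18, 6.15 and 6.21, and 6.26 and 6.26 in BXPC3, and 6.87 and 6.79, 6.69 and 6.68, and 6.81 and 6.78 in PANC1. The effect of GelMA on PES1 was called in neither line, at 0.11 and -0.09 log2, and the difference of -0.20 ± 0.06 (adjusted p = 0.0244) had an adjusted p of 0.0887 without BXPC3 collagen replicate 1 and 0.0966 without PANC1 collagen replicate 1. RRP9 rose in both lines and less in PANC1, where it had 5.43 and 5.29 in collagen, 5.58 and 5.48 in 5% and 5.86 and 5.84 in 7.5% GelMA. The interaction of RRP9, -0.23 ± 0.07 (adjusted p = 0.0306), had an adjusted p of 0.0504 to 0.13 without any of 7 libraries (BXPC3 collagen replicate 1, 5% GelMA replicate 1 or 7.5% GelMA replicate 2, and PANC1 collagen replicate 1, 5% GelMA replicate 2 or either 7.5% GelMA replicate). NOLC1, a nucleolar phosphoprotein that binds snoRNPs, had 6.87 and 6.84, 7.04 and 7.2, and 7.2 and 7.2 in BXPC3, and 7.91 and 7.98, 8.0 and 7.92, and 8.08 and 8.02 in PANC1. The GelMA libraries of NOLC1 were all higher in BXPC3 and overlapped collagen in PANC1 (interaction -0.25 ± 0.06, adjusted p = 0.0126, and 0.0541 without PANC1 collagen replicate 2).

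DKC1, dyskerin, the pseudouridine synthase of the H/ACA snoRNPs, was picked for display after its values were seen, as the snoRNP gene with the lowest interaction. It had 6.86 and 6.77 in BXPC3 in collagen, 7.12 and 7.16 in 5% and 7.21 and 7.25 in 7.5% GelMA, and 7.38 and 7.41, 7.34 and 7.33, and 7.29 and 7.31 in PANC1. In BXPC3 every GelMA library was above collagen, and in PANC1 every one was below it by a step that was not called (-0.07 log2, adjusted p = 0.0711); the interaction was -0.45 ± 0.05 (adjusted p = 4.52e-05). Of its H/ACA partners, NHP2 had an interaction of -0.40 and GAR1 of -0.28, both called, and NOP10 had 0.05, which was not.

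RRP9 and NPM1 carry the contrast between genes that rose in both lines and genes that moved oppositely, so their upstream sequences are shown, a choice made after the values were seen. The stretch of RRP9 lies at chr3:51941942-51942154 on the minus strand and that of NPM1 at chr5:171386866-171387115 on the plus strand (RefSeq, GRCh38.p14), both 5′ to 3′ and outside annotated exons, with GGGCGG in capitals.
RRP9: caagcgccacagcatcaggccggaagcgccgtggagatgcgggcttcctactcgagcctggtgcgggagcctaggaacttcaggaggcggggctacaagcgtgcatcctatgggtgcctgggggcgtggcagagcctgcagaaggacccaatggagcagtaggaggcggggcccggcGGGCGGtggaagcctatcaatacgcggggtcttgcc
NPM1: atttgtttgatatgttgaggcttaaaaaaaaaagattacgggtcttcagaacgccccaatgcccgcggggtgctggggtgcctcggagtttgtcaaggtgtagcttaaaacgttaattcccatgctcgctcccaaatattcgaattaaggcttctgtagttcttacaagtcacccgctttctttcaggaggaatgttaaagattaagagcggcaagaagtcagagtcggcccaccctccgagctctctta
The RRP9 stretch held 1 GC box and no E-box, and the NPM1 stretch held neither. Among the 31 genes with an upstream window, 2 of the 5 with an E-box in it rose in GelMA in BXPC3 (median 0.14 log2). Of the 26 without one there, 19 rose (median 0.27 log2). In PANC1 the medians were 0.01 and 0.02 log2. Only the 250 bases before a RefSeq start were searched, so an E-box elsewhere in a gene was not sought. BOP1, NOLC1, NOP58, RRP12, RRP1B, RRS1 and URB2 had no window and are in neither class, and all of them rose in BXPC3. The part of the E-box in these calls was not tested.

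Each GelMA concentration was also set against collagen, and these comparisons share the collagen libraries. In BXPC3, 24 of 38 rose and 0 fell in 5% GelMA (background 16.1% and 13.7% of all genes), and 29 rose and 0 fell in 7.5% GelMA (background 16.1% and 13.7%); 29 and 34 had an unadjusted p under 0.05 in limma. In PANC1, 7 were higher and 8 lower in 5% GelMA, or 18.4% and 21.1%. Those shares were near the background of 23% and 23.2%. In 7.5% GelMA, 17 were higher and 2 lower, or 44.7% and 5.26% (background 27.2% and 26.6%). The median factor in PANC1 was at -0.03 log2 in 5% and 0.12 in 7.5% GelMA. The 8 lower in 5% GelMA were BOP1, LYAR, NHP2, NOB1, NPM1, PES1, WDR43 and WDR74. Their number was 4 without PANC1 collagen replicate 1 or without 5% GelMA replicate 1, and 3 without 5% GelMA replicate 2. The 2 lower in 7.5% GelMA were NPM1 and PPAN, and the call of PPAN was lost without any of 5 libraries of PANC1 (PANC1 collagen replicate 1 or 2, 5% GelMA replicate 1 or 2, or 7.5% GelMA replicate 2; adjusted p from 0.0549 to 0.233), which left 1.

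The 2 concentrations were then compared with each other. In BXPC3, limma called 0 of 38 factors in either direction (6 with an unadjusted p under 0.05), where 0.0823% of all genes were called. In PANC1, 12 factors were higher in 7.5% than in 5% GelMA and 1 was lower, while 9.16% of all genes were higher and 9.56% lower, and the median factor was at 0.15 log2 against 0.01 over all genes. The difference between the lines in this effect was called for 0 of 38 (8 with an unadjusted p under 0.05, limma; 8.97% of all genes called), so the concentrations were not shown to act differently in the lines. The count of 12 higher was 3 without PANC1 5% GelMA replicate 1, 2 without 5% GelMA replicate 2, 5 without 7.5% GelMA replicate 1 and 4 without 7.5% GelMA replicate 2, and BOP1 and RRP9 kept their calls in every alternative tried.

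RRP9, with the PANC1 values given above, was 1.25-fold higher in 7.5% than in 5% GelMA (0.33 ± 0.06 log2, adjusted p = 0.00415). BOP1, another member of the PeBoW complex, had 5.57 and 5.5 in 5% and 5.82 and 5.89 in 7.5% GelMA, with 5.76 and 5.71 in collagen. It was 1.25-fold higher in 7.5% (adjusted p = 0.00264), and its collagen libraries lay between the GelMA groups. RRP12, a factor of subunit export and 40S maturation, had 6.33 and 6.25 in 5%, 6.52 and 6.56 in 7.5% GelMA and 6.17 and 6.20 in collagen, so that the 3 gels did not overlap (7.5% over 5% 1.19-fold, adjusted p = 0.0088). The adjusted p of RRP12 was 0.0825 without 5% GelMA replicate 2 and 0.0669 without 7.5% GelMA replicate 2. The smallest called rises were those of NPM1 (0.12 ± 0.03 log2, adjusted p = 0.0314) and WDR43 (0.15 ± 0.04, adjusted p = 0.034). Both therefore lay closer to collagen in 7.5% than in 5% GelMA, and both lost the call when any of the 4 PANC1 GelMA libraries was left out (adjusted p of 0.0854 to 0.17 for NPM1 and 0.0681 to 0.189 for WDR43). NPM1 also had an adjusted p of 0.0501 or 0.0502 without either BXPC3 library in 7.5% GelMA.

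NOP2 alone was called lower in 7.5% than in 5% GelMA in PANC1. It had -0.37 and -0.45 log2 RPKM in 5%, -1.37 and -1.13 in 7.5% GelMA and -0.94 and -0.84 in collagen, all under 1 RPKM, a scale on which the log2 difference of -0.84 ± 0.24 (adjusted p = 0.039) depends on the unknown offset of the log. With the values put on a log2(RPKM + 1) scale it was -0.30 (adjusted p = 0.0645), and leaving out any of the 4 PANC1 GelMA libraries raised the adjusted p to 0.0878 or more, up to 0.174 without 7.5% GelMA replicate 1. The call was also lost without BXPC3 7.5% GelMA replicate 1 (adjusted p = 0.0572) or replicate 2 (0.0575).

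With the 3 gels averaged, 36 of 38 factors differed between the lines, near the 91.8% of all genes tested that did. Of the 38, 28 were higher in PANC1 and 8 were lower, while 50% of all genes were higher and 41.9% lower. The median factor was 1.55-fold higher in PANC1 (0.63 log2, against 0.12 over all genes). All 6 nucleolar proteins, both polymerase subunits and 6 of 7 snoRNP proteins were higher, and NIP7, NOB1, NOP2, NOP14, NOP56, RCL1, UTP4 and WDR74 were the 8 lower ones. RRP1B (0.00 log2, adjusted p = 0.982) and PPAN (0.05, adjusted p = 0.805) were not called.

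NHP2, an H/ACA snoRNP protein, was the most raised in PANC1. Its level was 5.82 and 5.98, 6.15 and 6.17, and 6.18 and 6.25 in BXPC3 in collagen, 5% and 7.5% GelMA, and 7.67 and 7.55, 7.43 and 7.43, and 7.56 and 7.57 in PANC1. The lines did not overlap in any gel (2.72-fold, adjusted p = 7.78e-12); NHP2 shares 27.4% of its exonic bases with RMND5B on the opposite strand. RRP12 had 4.58 and 4.56, 5.04 and 5.06, and 5.04 and 5.19 in BXPC3, all under the PANC1 values above (2.69-fold, adjusted p = 5.36e-12). UTP20, a scaffold protein of the small subunit processome whose E-box is shown above, had 4.07 and 4.08, 4.01 and 4.24, and 4.39 and 4.19 in BXPC3 and 5.31 and 5.47, 5.56 and 5.55, and 5.64 and 5.54 in PANC1. It was 2.55-fold higher in PANC1 (adjusted p = 7.82e-10), without overlap, and was not called for GelMA in either line.

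In the other direction NOP14, a 40S factor (chr4:2937933-2963385, minus strand), had 5.83 and 5.80, 6.14 and 6.20, and 6.16 and 6.20 in BXPC3, and 5.44 and 5.38, 5.4 and 5.36, and 5.45 and 5.34 in PANC1. Every PANC1 library was lower (0.633-fold, adjusted p = 1.33e-09), and 17.1% of its exonic bases lie opposite the antisense gene NOP14-AS1. RCL1, with the values given above, was 0.58-fold as high in PANC1 (adjusted p = 2.14e-06). NOP2 had 0.15 and -0.08, 0.53 and -0.08, and 0.28 and 0.38 in BXPC3, and was lower in all PANC1 libraries (-1.05 ± 0.14 log2, adjusted p = 3.24e-05).

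The other genes of the pathway were counted from textbook lists, and each count is to be read against all genes tested, of which 19.4% rose and 16.7% fell in BXPC3 and 27.7% rose and 27.4% fell in PANC1. Of 136 tested genes of RNA polymerase I, snoRNP assembly, 40S and 60S assembly, the RNA exosome and subunit export, 73 rose and 7 fell in GelMA in BXPC3 (53.7% and 5.15%, median 0.14 log2), and 55 rose and 32 fell in PANC1 (40.4% and 23.5%, median 0.05). Among the other 48 40S factors, 33 rose and 1 fell in BXPC3. PNO1 (0.57 log2) and UTP15 (0.52) rose most, and RIOK3, a kinase of the family that acts on 40S precursors, fell by 0.21. In PANC1, 24 rose and 7 fell, with DDX47 (2.57) and NOP9 (0.52) highest and RIOK3 (-1.11) and UTP6 (-0.31) lowest. Among the other 43 60S factors, 22 rose and 2 fell in BXPC3 (ZNF622 0.53, SENP3 0.42, NOP53 -0.48, DDX55 -0.20), and 16 rose and 12 fell in PANC1 (ZNF622 0.41, GNL3L 0.40, NOP53 -0.74, RSL24D1 -0.66). The PANC1 shares of the 60S list, 37.2% and 27.9%, were near those of all genes in the lower direction.

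The snoRNP assembly list had 6 of 11 higher and 2 lower in BXPC3, and 5 higher and 6 lower in PANC1. FBL, fibrillarin, the methyltransferase of the C/D snoRNPs, stood at 7.23 and 7.22 in BXPC3 in collagen, 7.03 and 7.07 in 5% and 7.10 and 7.10 in 7.5% GelMA, and fell by 0.15 log2 (adjusted p = 0.00244). In PANC1 FBL had 11.35 and 11.38, 10.87 and 10.90, and 10.92 and 10.95, fell by 0.45 log2 (adjusted p = 6.18e-07), and was 3.94 log2 higher than in BXPC3. Its C/D partners NOP56 and NOP58 rose in BXPC3, by 0.27 and 0.35 log2. The other snoRNP genes with the highest and lowest calls were NAF1 (0.51), SHQ1 (0.34) and PIH1D1 (-0.25) in BXPC3, and ZNHIT6 (0.55), RPAP3 (0.38) and RUVBL1 (-0.44) in PANC1.

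Of the other 13 RNA polymerase I genes, 4 rose and 2 fell in BXPC3 (POLR1G 0.56, POLR1E 0.32, POLR1D -0.24, TAF1C -0.22), and 2 rose and 3 fell in PANC1 (POLR1F 0.38, RRN3 0.36, TAF1D -0.50, POLR1E -0.39). UBTF, the upstream binding factor of ribosomal DNA, was not called in either line (-0.05 and -0.05 log2, adjusted p = 0.41 and 0.309). In the exosome list 6 of 15 rose and 0 fell in BXPC3 (EXOSC4 0.47, MPHOSPH6 0.21), and 5 rose and 3 fell in PANC1 (MPHOSPH6 0.67, EXOSC4 0.42, EXOSC5 -0.56, EXOSC3 -0.30). The PANC1 shares of the exosome list, 33.3% and 20%, were near those of all genes. In the export list 2 of 6 rose and 0 fell in BXPC3 (LSG1 0.33, SBDS 0.27), and 3 rose and 1 fell in PANC1 (EFL1 0.26, EIF6 0.23, XPO1 -0.10).

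The proteins of the ribosome itself did not follow the assembly factors. Of 78 cytosolic ribosomal protein genes, 5 rose and 41 fell in GelMA in BXPC3 (6.41% and 52.6%, median -0.12 log2), and 0 rose and 62 fell in PANC1 (79.5% lower, median -0.39). RPL36A (0.59) and RPL26 (0.36) were highest and RPL31 (-0.49) and RPS24 (-0.48) lowest in BXPC3, and RPL36 (-0.94) and RPL37 (-0.81) lowest in PANC1. Many ribosomal protein genes have processed pseudogenes, so single values are uncertain. The median ribosomal protein gene stood at 9.27 and 9.19 log2 RPKM in PANC1 in collagen, 8.80 and 8.82 in 5% and 8.89 and 8.87 in 7.5% GelMA. Over the same libraries the median of the 38 factors was 6.07 and 6.10, 6.01 and 5.96, and 6.16 and 6.08. In BXPC3 that median was 5.42 and 5.4 in collagen, 5.57 and 5.64 in 5% and 5.61 and 5.66 in 7.5% GelMA. All 4 GelMA libraries thus lay higher. The median ribosomal protein gene in BXPC3 had 9.23 and 9.15 in collagen, 9.14 and 9.1 in 5% and 9.11 and 9.16 in 7.5% GelMA. Those GelMA and collagen medians overlapped.

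**Figure D5:**
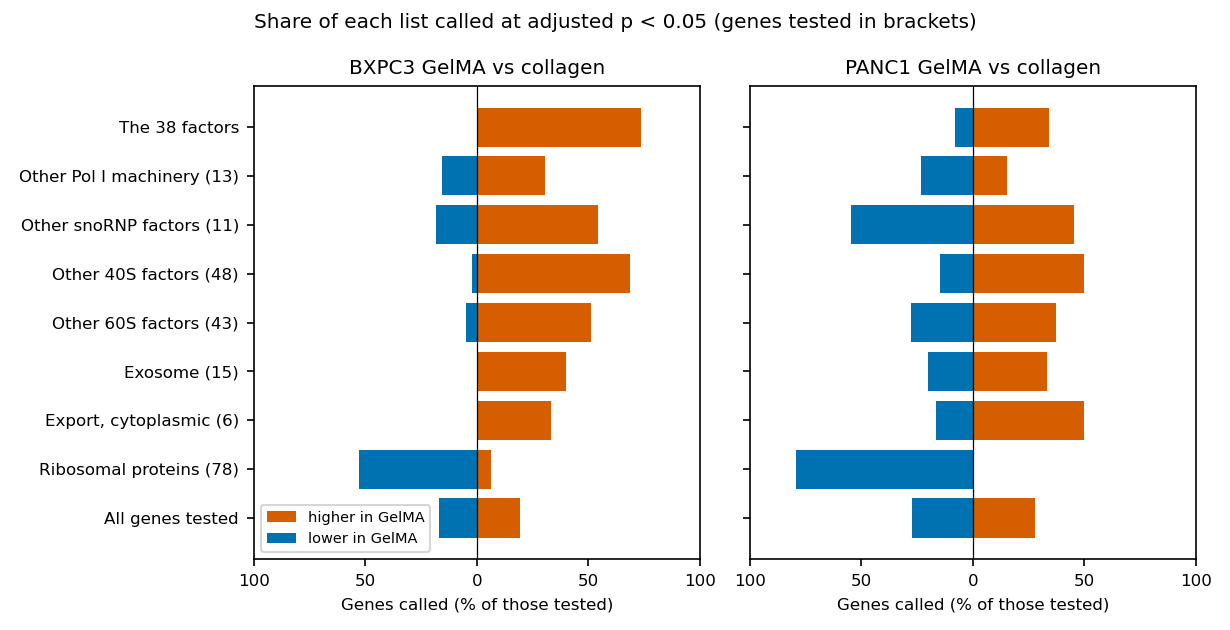
Share of each gene list called higher (orange, right) or lower (blue, left) in GelMA than in collagen, in percent of the genes tested (number in brackets), for BXPC3 and PANC1. The 38 factors lean to the higher side in BXPC3 (28 of 38), and cytosolic ribosomal proteins lean to the lower side in both lines (41 and 62 of 78).

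MYC moved in opposite directions in the lines. It stood at 6.66 and 6.70 in BXPC3 in collagen, 7.0 and 6.94 in 5% and 7.02 and 7.05 in 7.5% GelMA, a rise of 0.32 ± 0.03 log2 (adjusted p = 6.27e-05). In PANC1 it had 6.76 and 6.74, 5.94 and 5.91, and 6.07 and 6.10, a fall of -0.74 ± 0.03 log2 (adjusted p = 5.25e-08). The GelMA and collagen libraries did not overlap in either line, and the effects differed by -1.06 ± 0.04 log2 (adjusted p = 2.62e-07). Of 11 genes of the MYC network, 2 rose and 2 fell in BXPC3 (MLXIP 0.28 and MYC, MXI1 -1.23 and MXD4 -0.22), and 2 rose and 5 fell in PANC1 (MXD1 0.98, MLXIP 0.24, MXI1 -1.73, MYCL -0.94); MXD1, MXD4 and MXI1 encode antagonists of MYC. The BXPC3 shares of that list, 18.2% in each direction, were near those of all genes. Of 9 proliferation genes, 7 rose and 0 fell in BXPC3 (MCM2 0.41, MCM7 0.25), and 5 rose and 1 fell in PANC1 (MCM2 0.30, MCM3 0.28, MCM5 -0.28). MKI67, a marker of cycling cells, was not called in either line (-0.01 log2, adjusted p = 0.937, and 0.18 log2, adjusted p = 0.119).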

How the data were processed

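Poly-A RNA was sequenced in 12 libraries, and HISAT2 2.1.0 and HTSeq were used with GRCh38 (hg38), per the submitters' processing notes. Their settings, the annotation and the log offset are not given in the labels. The values the authors deposited were log2 RPKM, from -8.66 to 13.74. When each library was sorted, the 12 values at a rank lay within 0.05 log2 of each other for 13758 genes, all but the lowest 2541, so the table was taken as quantile normalized. Such a step removes a change shared by most genes, and depth cannot be read from it.

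Symbols came from a table of gene names (16250 IDs) and GENCODE 29 (49), and positions from GENCODE 29. Genes with at least 0 log2 RPKM in at least 2 libraries were tested (15794; 505 left out), all 38 factors among them. limma 3.58.1 in R 4.3.3 fitted 6 group means over 12 libraries (mean-variance trend, 6 residual and 3.89 prior degrees of freedom). P-values are two-sided and adjusted by Benjamini-Hochberg over all genes tested, and called under 0.05. In the text, rose, fell, higher and lower of a gene count refer to these calls.

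Values per library are given for the 3 highest and 3 lowest called factors of each main comparison, and for the other lists the 2 highest and 2 lowest called genes are named, with MYC, MKI67, FBL and UBTF. The factors and lists were chosen with earlier results of these data known. The 21 alternatives were other log offsets, filters, centring and variance settings, a replicate block, the libraries of 1 line only, and leaving out each of the 12 libraries.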

Additional observations from a re-analysis of the deposited data

Results flagged for a closer look

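For 21 of the 38 factors the effect of GelMA against collagen differed between the lines by the interaction term in limma (adjusted p under 0.05 over all genes tested). Each value is the effect in PANC1 minus that in BXPC3, in log2, and all 21 were negative. The snoRNP proteins were DKC1 (-0.45), NHP2 (-0.40), NOP58 (-0.29), GAR1 (-0.28) and RRP9 (-0.23). The nucleolar proteins were LYAR (-0.52), DDX21 (-0.45), NPM1 (-0.44) and NOLC1 (-0.25). The 40S factors were BYSL (-0.50), RCL1 (-0.47), WDR43 (-0.44), NOP14 (-0.38) and RRP12 (-0.28). The 60S factors were BOP1 (-0.46), NOP16 (-0.45), WDR74 (-0.37), RRS1 (-0.33), URB2 (-0.29), MRTO4 (-0.25) and PES1 (-0.20). The call was kept in every alternative for 14 of the 21, and it was lost in at least 1 for RRP9, RCL1, PES1, RRS1, GAR1, NOLC1 and URB2. No group held more than 2 libraries, so no library was tested for standing apart from its group.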

How the results depend on the processing

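Of the 8642 recomputed values of single factors, 8333 stayed on the same side of the threshold, 222 lost a call, 87 gained one and 0 changed sign while called. Of the calls in GelMA against collagen, 24 of 28 in BXPC3 and 10 of 16 in PANC1 were kept in every alternative, as were 14 of 21 interactions, 2 of 13 calls of 7.5% against 5% in PANC1 and 36 of 36 between the lines. The same replicate numbers did not pair the samples: over 15 pairs of groups the deviations correlated at -0.048 to 0.077. With a replicate block, the count lower in 7.5% than in 5% GelMA in PANC1 was 0 in place of 1 and that lower in 7.5% GelMA than in collagen was 1 in place of 2; no other count of calls moved by over 1.5 times. The count lower in PANC1 GelMA was 7 with the libraries of that line alone. The count of higher interactions was 1 (POLR1A) with log2(RPKM + 1), with log2(RPKM + 0.1) and with a filter at 2 log2 RPKM. The count lower in 7.5% than in 5% GelMA in PANC1 was 0 with log2(RPKM + 1) and with that filter, which also left 1 lower in 7.5% GelMA than in collagen. Without the mean-variance trend, 5 factors were higher in 7.5% than in 5% GelMA and 5 were lower in 5% GelMA than in collagen in PANC1. Centring moved no library by more than 0.002 log2.

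With each library left out in turn, the factors higher in GelMA numbered 25 to 31 and lower 0 to 1 in BXPC3, and 10 to 14 and 1 to 7 in PANC1. Interactions numbered 0 to 2 higher and 17 to 21 lower. In PANC1, 2 to 13 were higher and 0 to 1 lower in 7.5% than in 5% GelMA. Against collagen, 5% GelMA gave 21 to 27 higher and 0 to 1 lower in BXPC3 and 6 to 8 higher and 3 to 9 lower in PANC1, and 7.5% GelMA gave 23 to 30 higher in BXPC3 and 12 to 18 higher and 1 to 3 lower in PANC1. A group with 1 library left is assumed to vary like the others. Counting error is unknown without depth, and NOP2 and PPAN are the least certain. Where no cause is given above, the cause was not tested.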
